A study of Homo sapiens with 22 samples.

Results

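The 28 genes described here are those of sterol synthesis and of its control by the transcription factor SREBP2, among 25244 genes in the table of the HUWE1 experiment and 25791 in that of the MIZ1 experiment. They were chosen by gene symbol from a list of 30 names, of which SC4MOL and SC5DL are older names of MSMO1 and SC5D, and each table held all 28 of them. Cholesterol is built from acetyl-CoA through mevalonate, isoprenoid diphosphates, squalene and lanosterol. SREBP2, the product of SREBF2, is held in the endoplasmic reticulum with SCAP by the INSIG proteins while sterols are plentiful. When sterols are scarce, SCAP carries it to the Golgi, where proteases release the part that enters the nucleus and activates most genes of this pathway, often with the CCAAT-binding factor NF-Y beside it. Intestinal cells also take up sterols from the lumen.

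Ls174T is a cell line from a human colon carcinoma, and its RNA was sequenced in 2 experiments of 4 groups with 2 libraries each. In the HUWE1 experiment, pools of cells infected with the pLKO vector carrying an shRNA against the ubiquitin ligase HUWE1 were incubated with 20 µM of the HUWE1 inhibitor BI8622 for 16 h or with its solvent DMSO, as were cells infected with the empty pLKO vector (called control vector cells below). In the MIZ1 experiment, all cells carried the pIND vector with a doxycycline-inducible shRNA against MIZ1, a zinc finger protein that binds MYC, and received 1 µg/ml doxycycline for 4 days (+Dox) or none (-Dox), each with BI8622 or with DMSO. An empty vector is not a non-targeting shRNA, and no group received doxycycline without the MIZ1 shRNA, so the effects of the drug and of that shRNA cannot be told apart. All levels are group means in counts per 1000000 (CPM), solved from the authors' deposited means over pairs of groups. They stand for both libraries of a group at once. Thus no difference could be set against the spread between replicates, none was tested, and the total counts of the libraries, which would give the depth, are not known here. Nor do the labels state if replicate libraries stem from different cultures. A difference is counted below when it reached 1.5-fold, and that count is read against the share of all genes of at least 1 CPM that reached it.

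HUWE1 itself averaged 218 CPM in shHUWE1 cells and 420.2 CPM in control vector cells with DMSO, and 176.5 CPM in shHUWE1 cells and 460.2 CPM in control vector cells with BI8622. ZBTB17, which encodes MIZ1, averaged 11.0 CPM with and 15.7 CPM without doxycycline in DMSO, and 11.4 CPM with and 22.6 CPM without it in BI8622. All 12 markers of colon epithelium were above 1 CPM in every group, with sums between 1994 and 3545 CPM that were higher with BI8622 than with DMSO in each of the 4 settings. Of the 12, 8 were higher with BI8622 in +Dox cells and 9 in each other setting, since EPCAM, CDX2 and CDX1 were lower with BI8622 in all 4 settings and VIL1 in +Dox cells. The sum was also higher in shHUWE1 than in control vector cells, at 3545 and 2824 CPM with BI8622 and 2759 and 2028 CPM with DMSO. Of 15 markers of fibroblasts, leukocytes and endothelium, the HUWE1 table listed 5 and that of the MIZ1 experiment 6, none above 6.23 CPM in any group. The part of this difference in epithelial markers in the results below was not tested.

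Promoters are shown first, as a description of the list, which was drawn up by pathway but with earlier results of these data known. RefSeq start sites were found for 25 of the 28 genes, all but ACAT2, FDFT1 and SQLE. The 200 bases before the RefSeq start are printed with their place in GRCh37, the build of the deposited tables. For HMGCS1, FDPS and NSDHL part of that window lies inside the gene as annotated in GRCh37, where the start is placed differently. The printed windows are those of 5 genes from different steps that were higher with BI8622, and of PMVK, whose BI8622 ratios stayed near 1. These genes were picked by hand and do not stand for the list. CYP51A1 and TMEM97, which go the other way and are described below, are not printed. Capitals mark CCAAT or its reverse complement ATTGG, the letters NF-Y binds, and TCACNCCAC, taken as the core of the sterol regulatory element. No other form of that element was searched. In NSDHL 2 of the matches overlap.
HMGCS1 (chr5:43313515-43313714, minus strand): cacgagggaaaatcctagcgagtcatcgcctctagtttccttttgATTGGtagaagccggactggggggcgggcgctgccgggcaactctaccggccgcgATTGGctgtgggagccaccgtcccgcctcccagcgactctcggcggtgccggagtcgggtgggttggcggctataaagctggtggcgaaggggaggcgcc
MSMO1 (chr4:166248621-166248820, plus strand): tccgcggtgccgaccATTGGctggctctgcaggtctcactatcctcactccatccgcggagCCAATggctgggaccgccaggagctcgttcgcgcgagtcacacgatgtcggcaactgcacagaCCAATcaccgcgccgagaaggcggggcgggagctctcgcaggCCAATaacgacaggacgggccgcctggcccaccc
FDPS (chr1:155278457-155278656, plus strand): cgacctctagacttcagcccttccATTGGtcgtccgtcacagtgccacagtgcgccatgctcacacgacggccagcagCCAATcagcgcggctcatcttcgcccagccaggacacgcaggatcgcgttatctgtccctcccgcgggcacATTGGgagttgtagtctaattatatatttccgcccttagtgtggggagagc
NSDHL (chrX:151999407-151999606, plus strand): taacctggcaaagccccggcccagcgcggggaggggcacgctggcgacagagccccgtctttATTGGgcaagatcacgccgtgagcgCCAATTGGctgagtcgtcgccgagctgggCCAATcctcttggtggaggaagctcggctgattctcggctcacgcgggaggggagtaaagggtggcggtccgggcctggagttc
SREBF2 (chr22:42228909-42229108, plus strand): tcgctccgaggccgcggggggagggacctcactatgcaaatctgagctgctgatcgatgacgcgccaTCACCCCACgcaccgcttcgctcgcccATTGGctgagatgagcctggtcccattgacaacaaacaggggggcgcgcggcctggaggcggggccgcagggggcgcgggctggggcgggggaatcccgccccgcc
PMVK (chr1:154909196-154909395, minus strand): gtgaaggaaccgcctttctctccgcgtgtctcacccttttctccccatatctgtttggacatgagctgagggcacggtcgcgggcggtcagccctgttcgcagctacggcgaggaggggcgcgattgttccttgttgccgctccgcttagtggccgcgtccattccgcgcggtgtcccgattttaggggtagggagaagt

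The letters CCAAT stood, on either strand, in the 300 bases from 250 before to 50 after a start site in 20 of the 25 genes (80.0%), against 39.7% of all 27305 genes of the RefSeq table (GRCh38.p14). Counted by start site, they were in 22 of 35 promoters of these genes (62.9%) and in 34.6% of all 35116 promoters. HMGCS1 held its reverse complement at positions -155 and -100 from the start, and MSMO1 held 4 matches. SREBF2 was the only one of the 25 with TCACNCCAC (4.0% of them and 1.39% of all genes), at position -133, with a match to the NF-Y letters at -106. Only these exact letters were searched, so the other promoters may hold sterol regulatory elements that differ from them. The E-box CACGTG, which MYC and its partner MAX bind, was found in INSIG1, LSS, SC5D and SCAP (16.0% of the 25, against 8.77% of all genes). Of the genes without CCAAT, CYP51A1, with none of the letters searched, was among those with the highest ratios, at a mean log2 ratio of 1.61 over the 4 BI8622 settings. The others had lower means: PMVK 0.08, INSIG2 0.53, LPIN1 0.44 and SCAP -0.12. Among genes with CCAAT, TMEM97 held it at 3 places and had a mean of 0.16, EBP had 0.33 and GGPS1 0.39. Whether the letters and the BI8622 ratios go together was not tested. These are matches of letters within a window and not evidence of binding.

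**Figure D1:**
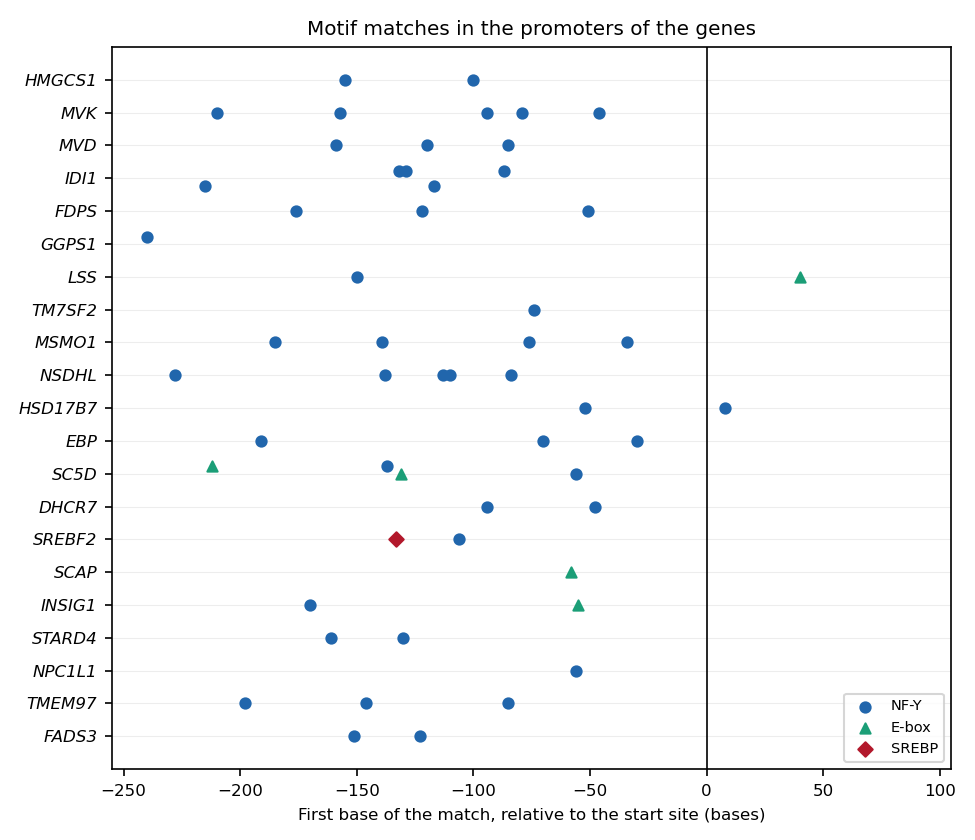
Position of each match to the NF-Y letters (circles), the E-box (triangles) and the SREBP core (diamond) in bases from the start site (horizontal axis) for the genes with at least 1 match (vertical axis); matches of a gene's further start sites are drawn slightly above and below its line. The NF-Y matches lie mostly upstream of the start, and SREBF2 has the only match to the exact SREBP letters searched, at -133.

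BI8622 went with higher levels of most of these genes, from the first step of the mevalonate pathway to the last of cholesterol synthesis, in all 4 settings in which it was compared with DMSO. In control vector cells 19 of the 28 genes were at least 1.5-fold higher with BI8622 and none was 1.5-fold lower, against 10.4% and 5.83% of all 24715 genes of at least 1 CPM, and their median fold was 1.61 against 1.01 for all genes. In shHUWE1 cells it was again 19 genes higher and none lower, where 6.54% of all genes were higher and 6.78% lower, with a median fold of 1.78 against 0.979. The MIZ1 experiment gave 22 genes higher and none lower without doxycycline (15.2% and 11.5% of 25251 genes; median fold 2.19 against 1.03) and 21 higher and none lower with it (12.8% and 10.9% of 25252 genes; median fold 2.00 against 1.01). Of the 28 genes, 18 were at least 1.5-fold higher in all 4 settings and 26 were above their DMSO level in all 4, against 3.4% and 28.7% of the 24111 genes of at least 1 CPM in both tables. SCAP was below its DMSO level in all 4, and PMVK in control vector cells only. Together the 28 transcripts made up 0.511% of all counts in shHUWE1 cells with BI8622 and 0.243% with DMSO, and 0.570% in control vector cells with BI8622 and 0.308% with DMSO. In the MIZ1 experiment they made up 0.675% with BI8622 and 0.297% with DMSO in +Dox cells, and 0.728% with BI8622 and 0.299% with DMSO in -Dox cells.

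**Figure D2:**
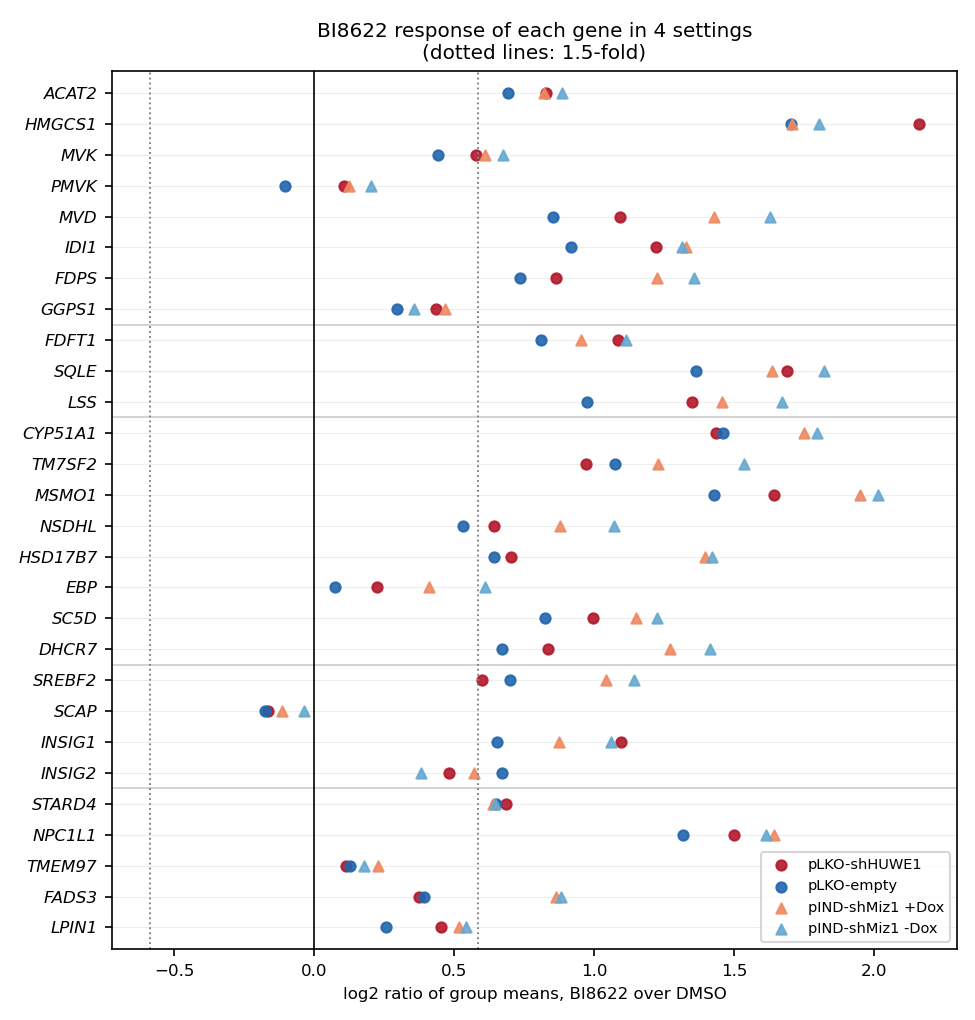
Log2 ratio of the group means with BI8622 over DMSO (horizontal axis) of each of the 28 genes (vertical axis, grouped by role) in shHUWE1, control vector, +Dox and -Dox cells. All points of 26 genes lie right of 0; SCAP lies left of it in all 4 settings and PMVK in control vector cells.

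In the mevalonate pathway, HMGCS1, which makes HMG-CoA and is a classic SREBP2 target, had the highest ratios. In shHUWE1 cells HMGCS1 averaged 983 CPM with BI8622 and 219.9 CPM with DMSO, and in control vector cells 969.8 CPM with BI8622 and 297 CPM with DMSO. In the MIZ1 experiment it averaged 984 CPM with BI8622 and 301 CPM with DMSO in +Dox cells, and 1041 CPM with BI8622 and 298 CPM with DMSO in -Dox cells. Its BI8622 groups thus lay close together at 969.8 to 1041 CPM, and its DMSO groups at 219.9 to 301 CPM. The fold was 4.47 in shHUWE1 cells, 3.26 in control vector cells, 3.26 in +Dox cells and 3.50 in -Dox cells. With pair means taken on the log2 scale, a reading that gave wider gaps between routes to the same level, it was 5.30 in control vector cells. MVD, which decarboxylates mevalonate diphosphate, and IDI1, the isomerase that makes dimethylallyl diphosphate, followed. MVD had 107.5 CPM with BI8622 and 50.4 CPM with DMSO in shHUWE1 cells, against 129 CPM with BI8622 and 71.4 CPM with DMSO in control vector cells. The level of IDI1 was 184.5 CPM with BI8622 and 79.1 CPM with DMSO in shHUWE1 cells, and 209 CPM with BI8622 and 110.4 CPM with DMSO in control vector cells. In the MIZ1 experiment MVD was 2.69-fold higher with BI8622 in +Dox and 3.10-fold higher in -Dox cells, and IDI1 2.52-fold and 2.49-fold. FDPS makes farnesyl diphosphate, the branch point to sterols and to prenylated proteins. For FDPS, shHUWE1 cells gave 307 CPM with BI8622 and 168.5 CPM with DMSO, and control vector cells 349 CPM with BI8622 and 209.8 CPM with DMSO. Its folds in +Dox and -Dox cells were 2.34 and 2.56. ACAT2, the cytosolic thiolase, was higher by 1.62 to 1.85 over the 4 settings, and MVK, mevalonate kinase, by 1.36 to 1.60. GGPS1, which makes geranylgeranyl diphosphate outside the sterol branch, stayed under 1.5-fold throughout, at 1.23 to 1.38. PMVK, the kinase between MVK and MVD, hardly differed. In shHUWE1 cells PMVK averaged 20.9 CPM with BI8622 and 19.4 CPM with DMSO, and in control vector cells 23.0 CPM with BI8622 and 24.8 CPM with DMSO. Over the 8 genes of this part of the pathway the median fold was 1.80 in shHUWE1 cells, 1.64 in control vector cells, 2.03 in +Dox cells and 2.14 in -Dox cells.

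The 3 enzymes from farnesyl diphosphate to lanosterol were 1.5-fold or more above DMSO in every setting. SQLE, squalene epoxidase, a rate-limiting enzyme of the pathway, had the highest ratios of the 3. SQLE had 193 CPM with BI8622 and 59.7 CPM with DMSO in shHUWE1 cells, against 231.5 CPM with BI8622 and 89.8 CPM with DMSO in control vector cells. The +Dox cells had 299 CPM with BI8622 and 96.2 CPM with DMSO, and the -Dox cells 321 CPM with BI8622 and 90.8 CPM with DMSO. In each setting its BI8622 level was above both DMSO levels of the same experiment. FDFT1, squalene synthase, was higher by 1.76 to 2.16 over the 4 settings. The level of FDFT1 was 689 CPM with BI8622 and 325 CPM with DMSO in shHUWE1 cells, and 748.5 CPM with BI8622 and 426.5 CPM with DMSO in control vector cells. LSS closes squalene epoxide to lanosterol. For LSS, shHUWE1 cells gave 245 CPM with BI8622 and 96.2 CPM with DMSO, and control vector cells 285 CPM with BI8622 and 145 CPM with DMSO. With the MIZ1 shRNA it was at 286 CPM with BI8622 and 104 CPM with DMSO in +Dox cells, and at 372 CPM with BI8622 and 117 CPM with DMSO in -Dox cells. Its fold was 1.97 in control vector cells and 2.55, 2.75 and 3.19 in shHUWE1, +Dox and -Dox cells.

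Of the 8 enzymes from lanosterol to cholesterol, CYP51A1 and MSMO1, which take part in removing the methyl groups of lanosterol, had the highest ratios. In shHUWE1 cells CYP51A1 averaged 358 CPM with BI8622 and 132 CPM with DMSO, and in control vector cells 418 CPM with BI8622 and 152 CPM with DMSO. In the MIZ1 experiment it averaged 564 CPM with BI8622 and 168 CPM with DMSO in +Dox cells, and 591 CPM with BI8622 and 170.1 CPM with DMSO in -Dox cells. Its log2 ratio lay between 1.44 and 1.80 in the 4 settings. MSMO1 is the methyl oxidase that works after CYP51A1 and before NSDHL. MSMO1 had 86.0 CPM with BI8622 and 27.5 CPM with DMSO in shHUWE1 cells, against 219.6 CPM with BI8622 and 81.5 CPM with DMSO in control vector cells. The +Dox cells had 414.5 CPM with BI8622 and 107 CPM with DMSO, and the -Dox cells 427.5 CPM with BI8622 and 106 CPM with DMSO. Its fold was 3.12 in shHUWE1 and 2.69 in control vector cells, 3.87 in +Dox and 4.04 in -Dox cells, but its DMSO levels differed more than those of any other of the 28 genes in the HUWE1 experiment. With pair means taken on the log2 scale its log2 ratio was 1.24 in shHUWE1 and 1.81 in control vector cells, the reverse order. HSD17B7, the reductase that completes demethylation, had folds of 1.63 in shHUWE1 and 1.56 in control vector cells, and higher ones of 2.63 and 2.68 in +Dox and -Dox cells. DHCR7, which takes the last step from 7-dehydrocholesterol, had a like pattern. The level of DHCR7 was 254 CPM with BI8622 and 142 CPM with DMSO in shHUWE1 cells, and 301 CPM with BI8622 and 189 CPM with DMSO in control vector cells. With the MIZ1 shRNA it was at 398 CPM with BI8622 and 165 CPM with DMSO in +Dox cells, and at 450.2 CPM with BI8622 and 169 CPM with DMSO in -Dox cells. TM7SF2, a sterol C14 reductase, was 1.96 to 2.90 times its DMSO level, SC5D, the C5 desaturase, 1.77 to 2.34 times, and NSDHL, the C4 decarboxylase, 1.45 to 2.10 times. EBP, the sterol isomerase, reached 1.5-fold in -Dox cells alone, at 1.53, and had 1.33 in +Dox, 1.17 in shHUWE1 and 1.05 in control vector cells.

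The components that control SREBP2 differed among themselves. SREBF2, which SREBP2 itself activates, was 1.52 to 2.21 times its DMSO level. For SREBF2, shHUWE1 cells gave 366 CPM with BI8622 and 241 CPM with DMSO, and control vector cells 415 CPM with BI8622 and 255 CPM with DMSO. In the MIZ1 experiment it averaged 507 CPM with BI8622 and 246 CPM with DMSO in +Dox cells, and 522 CPM with BI8622 and 236.5 CPM with DMSO in -Dox cells. INSIG1, the sterol-responsive anchor of SCAP, was also higher. In shHUWE1 cells INSIG1 averaged 325 CPM with BI8622 and 152 CPM with DMSO, and in control vector cells 344 CPM with BI8622 and 218 CPM with DMSO. The +Dox cells had 342 CPM with BI8622 and 186.5 CPM with DMSO, and the -Dox cells 412 CPM with BI8622 and 197 CPM with DMSO. Its folds ran between 1.57 in control vector and 2.14 in shHUWE1 cells. INSIG2, the related anchor, which is not a typical SREBP target, was 1.59-fold higher in control vector cells, 1.49-fold in +Dox, 1.40-fold in shHUWE1 and 1.30-fold in -Dox cells. SCAP, the escort of SREBP2, was the only gene of the 28 below its DMSO level in all settings. SCAP had 70.8 CPM with BI8622 and 79.4 CPM with DMSO in shHUWE1 cells, against 72.4 CPM with BI8622 and 81.7 CPM with DMSO in control vector cells. These differences of SCAP amount to folds of 0.886 to 0.976, well short of the 1.5-fold counted here.

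Among the genes of transport and other lipid steps, NPC1L1, the intestinal sterol uptake protein, had high ratios at low levels. The level of NPC1L1 was 6.85 CPM with BI8622 and 2.42 CPM with DMSO in shHUWE1 cells, and 8.0 CPM with BI8622 and 3.21 CPM with DMSO in control vector cells. With the MIZ1 shRNA it was at 7.80 CPM with BI8622 and 2.49 CPM with DMSO in +Dox cells, and at 11.3 CPM with BI8622 and 3.70 CPM with DMSO in -Dox cells. At such levels the 0.234 to 0.240 CPM that the authors' tool adds to each gene, and few counts, weigh on the ratio. STARD4, a cytosolic sterol carrier, had nearly the same fold in each setting, 1.56 to 1.61. FADS3, a member of the fatty acid desaturase family, was 1.30-fold and 1.31-fold higher in shHUWE1 and control vector cells and 1.82-fold and 1.84-fold in +Dox and -Dox cells. LPIN1, a phosphatidate phosphatase, had folds of 1.20 to 1.46, none of them past 1.5. TMEM97, an endoplasmic reticulum protein known as the sigma-2 receptor, had folds between 1.08 and 1.17. The larger BI8622 ratio was seen in -Dox rather than control vector cells for 26 of the 28 genes, all but INSIG2 and STARD4, against 50.3% of all genes, and over all genes of at least 1 CPM more also reached 1.5-fold there (15.2% higher and 11.5% lower, against 10.4% and 5.83%). These cells carry other vectors and were sequenced in another experiment, and what lies behind the difference was not tested.

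Depletion of HUWE1 went with lower levels of most of these genes. In DMSO, 26 of the 28 were lower in shHUWE1 than in control vector cells, as were 46.6% of all genes, with a median fold of 0.808 against 1.01 for all genes, although the step was small for most. LSS, SQLE and MSMO1 were at least 1.5-fold lower and no gene was 1.5-fold higher, where 1.68% of all genes were lower and 3.99% higher. LSS (0.663) and SQLE (0.665) only just reached that size, and INSIG1 (0.695), MVD (0.706), IDI1 (0.716) and MVK (0.718) came close to it. With pair means taken on the log2 scale, only 1 gene, MSMO1, was 1.5-fold lower. The exceptions to the direction were INSIG2, at 25.2 CPM in shHUWE1 and 22.8 CPM in control vector cells, and TMEM97, at 148.3 CPM in shHUWE1 and 147.9 CPM in control vector cells, which turned lower once the median of all genes was centred. MSMO1 stood apart with 27.5 CPM in shHUWE1 cells against 81.5 CPM in control vector cells, a fold of 0.338. Enzymes that act near it in the pathway had folds of 0.871 (CYP51A1), 0.924 (TM7SF2) and 0.808 (NSDHL).

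The inhibitor and the depletion thus had opposite signs for most genes. Of the 28, 24 were above the common control, control vector cells with DMSO, after BI8622 and below it after depletion, INSIG2 and TMEM97 were above it in both, and PMVK and SCAP were below it in both. Of all genes, 16.6% were above it after BI8622 and below it after depletion. Both ratios share that control group, and all levels of this experiment were solved together from the same pair means. The ratios are therefore not independent of each other, and what part this has in their signs was not tested. For HMGCS1 the log2 ratio was 1.71 with BI8622 and -0.44 with depletion, for SQLE 1.37 and -0.59, for INSIG1 0.65 and -0.53, and for SREBF2 0.70 and -0.08. Exposure also differed, since BI8622 acted for 16 h and the shRNA was stably expressed.

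**Figure D3:**
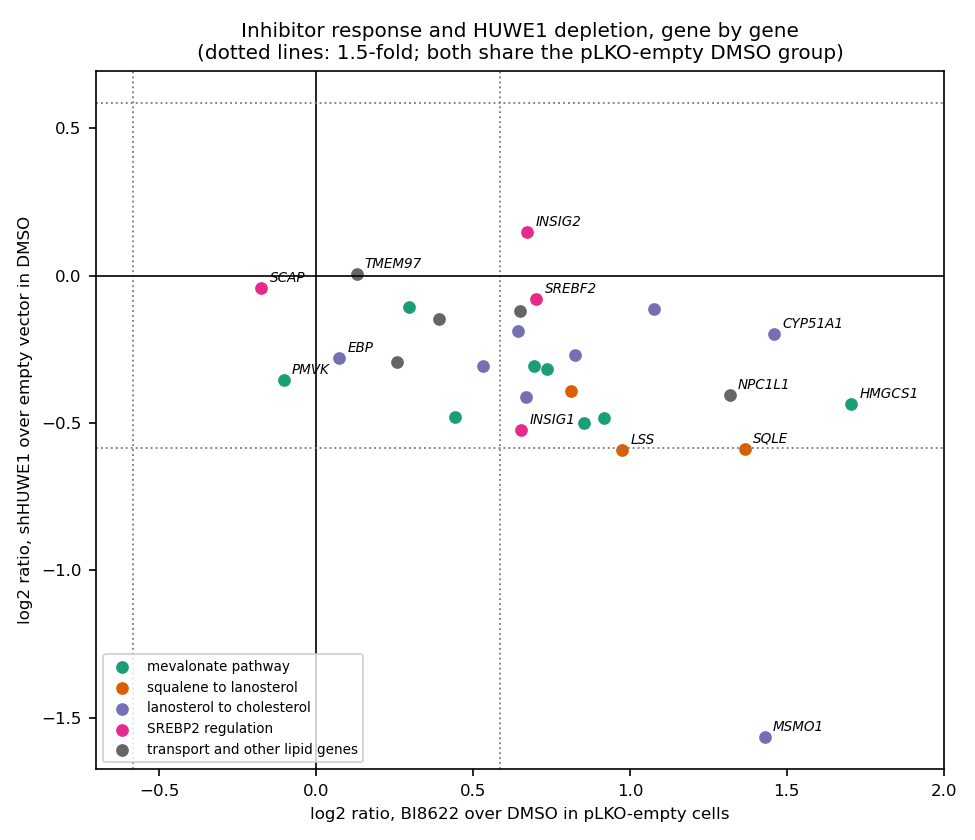
Log2 ratio with BI8622 over DMSO in control vector cells (horizontal axis) against log2 ratio of shHUWE1 over control vector cells in DMSO (vertical axis) for the 28 genes, coloured by role. Most points lie right of and below 0, and MSMO1 is lowest at -1.57 on the vertical axis.

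With BI8622 present, shHUWE1 cells were also lower in 26 of the 28 genes than control vector cells, as they were in 56.0% of all genes, with a median fold of 0.890 against 0.980 for all genes. The 4 levels of this experiment were solved together from the same pair means, so this comparison is not independent of that in DMSO. MSMO1 alone was 1.5-fold lower and none was 1.5-fold higher (2.91% and 2.11% of all genes). It averaged 86.0 CPM in shHUWE1 and 219.6 CPM in control vector cells, a fold of 0.392. HMGCS1 (1.01) and GGPS1 (1.02) were the 2 genes above 1. In all, 24 genes were lower in shHUWE1 cells both with BI8622 and with DMSO, against 32.0% of all genes. The BI8622 ratio itself was larger in shHUWE1 than in control vector cells for 22 of the 28 genes and for 42.1% of all genes, by a median of 0.15 on the log2 scale against -0.04 for all genes, and no gene differed by 1.5-fold in that ratio (2.67% of all genes had a larger and 6.44% a smaller one by that much). That median was 0.0297 with pair means taken on the log2 scale. With pair means taken arithmetically, the widest gaps in log2 ratio were those of HMGCS1 (0.45) and INSIG1 (0.44), and INSIG2 had the widest the other way (-0.19).

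Both treatments together, shHUWE1 cells with BI8622 against control vector cells with DMSO, left 11 of the 28 genes at least 1.5-fold higher and none 1.5-fold lower, where 10.4% of all genes were higher and 8.73% lower. HMGCS1 was 3.31-fold (5.41-fold with pair means taken on the log2 scale), CYP51A1 2.36-fold and SQLE 2.15-fold higher. MSMO1 reached 86.0 CPM, close to the 81.5 CPM of control vector cells with DMSO. The median over the 28 genes was 1.45-fold, against 1.00-fold over all genes.

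Doxycycline with the MIZ1 shRNA went with small differences. In DMSO, none of the 28 genes was 1.5-fold higher or lower with doxycycline (2.23% and 1.43% of all genes were), with 12 above and 16 below their -Dox level and a median fold of 0.976 against 1.00 for all genes, of which 47.9% were below. With pair means taken on the log2 scale 25 of the 28 were below, with a median log2 ratio of -0.14. NPC1L1 was lowest, at 2.49 CPM in +Dox and 3.70 CPM in -Dox cells. In BI8622, too, none reached 1.5-fold in either direction (1.66% higher and 2.02% lower among all genes), and 24 of the 28 were below their -Dox level, as were 52.4% of all genes, with a median fold of 0.938 against 0.993 for all genes. With pair means taken on the log2 scale it was 16 of the 28, so whether more genes were below in BI8622 or in DMSO depends on that choice. TM7SF2 averaged 40.3 CPM in +Dox and 57.3 CPM in -Dox cells with BI8622, NPC1L1 7.80 and 11.3 CPM, and LSS 286 and 372 CPM, in the same order. The 4 genes above their -Dox level were GGPS1, INSIG2, FADS3 and HSD17B7, with GGPS1 at 54.8 CPM in +Dox and 49.5 CPM in -Dox cells. The BI8622 ratio was larger with doxycycline than without it for 5 of the 28 genes and for 46.2% of all genes, with a median difference of -0.08 on the log2 scale against -0.02 for all genes, and no gene differed by 1.5-fold (2.78% of all genes had a larger and 4.36% a smaller ratio by that much).

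**Figure D4:**
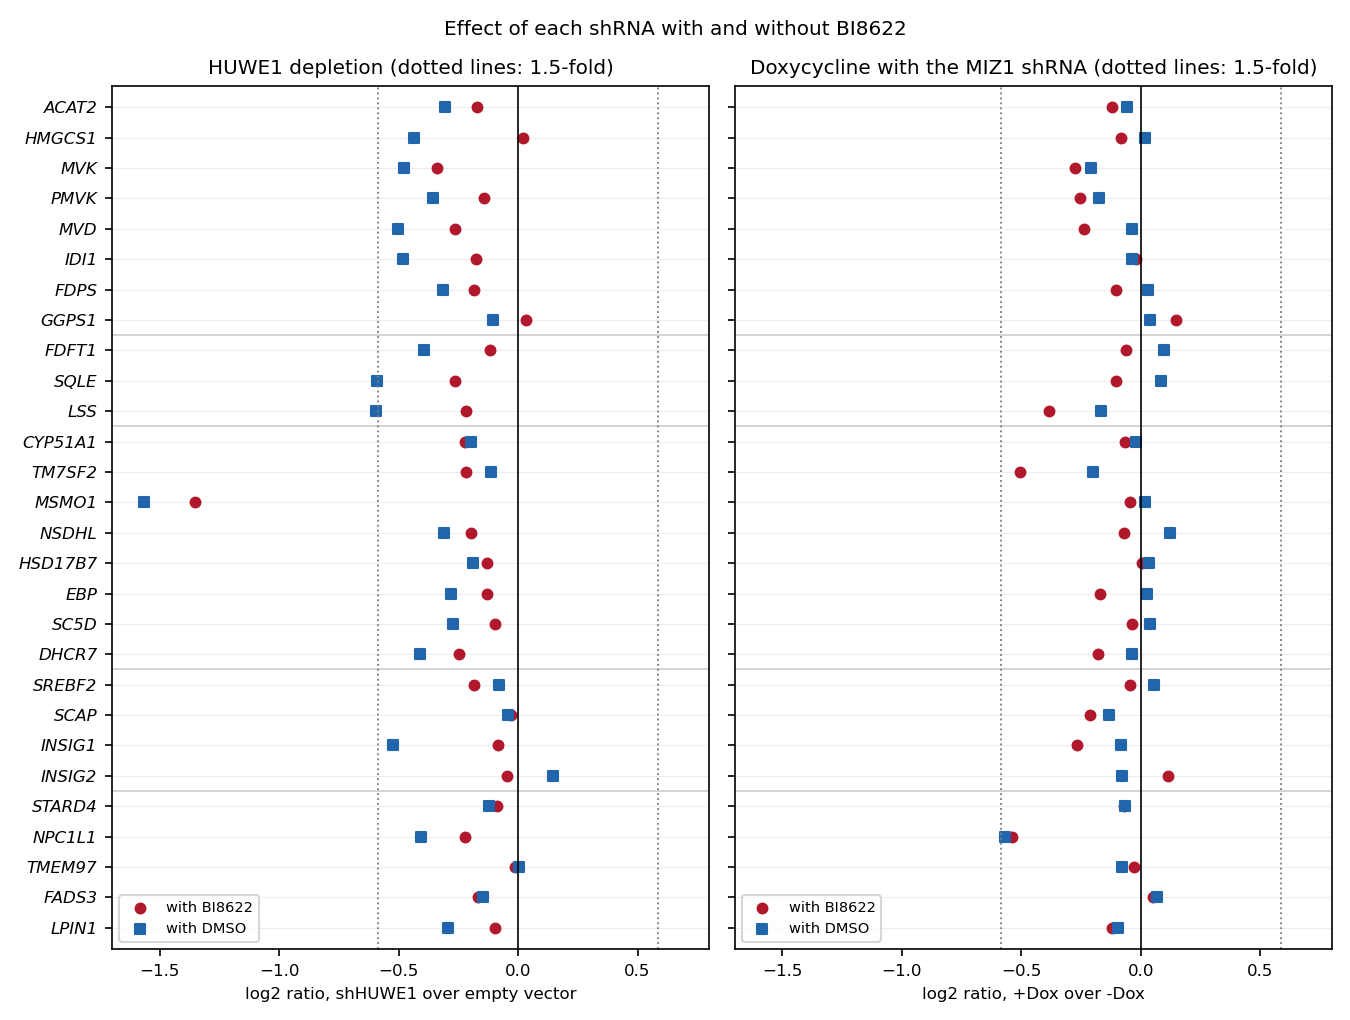
Log2 ratio of shHUWE1 over control vector cells (left) and of +Dox over -Dox cells (right) for each gene (vertical axis, grouped by role), with BI8622 (circles) and with DMSO (squares). On the left most points lie below 0 and MSMO1 stands apart at -1.35 and -1.57; on the right all points lie within the 1.5-fold lines.

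Of 33 further genes near the pathway (isoprenoid use, sterol handling, turnover of SCAP and INSIG, and SREBP1-driven fatty acid synthesis), 32 in the HUWE1 table were of at least 1 CPM, and 3 of them were 1.5-fold higher and none lower with BI8622 in control vector cells, while 3 were higher and 1 lower in shHUWE1 cells. In -Dox cells 6 of 33 were higher and 2 lower, and in +Dox cells 4 were higher and 3 lower. The shares of all genes were 10.4% higher and 5.83% lower in control vector, 6.54% and 6.78% in shHUWE1, 15.2% and 11.5% in -Dox and 12.8% and 10.9% in +Dox cells, so these counts lay near the background. C14orf1, a scaffold of the sterol demethylation enzymes, the acetyl-CoA synthetase gene ACSS2 and the stearoyl-CoA desaturase gene SCD were the genes at least 1.5-fold higher in all 4 settings. Others, such as FASN and ACLY, were above their DMSO level in all 4 without reaching that size in each. ACSS2, an SREBP target that supplies acetyl-CoA, averaged 180.3 CPM with BI8622 and 45.9 CPM with DMSO in shHUWE1 cells, and 202 CPM with BI8622 and 49.1 CPM with DMSO in control vector cells. In +Dox cells it had 255 CPM with BI8622 and 49.9 CPM with DMSO, and in -Dox cells 326 CPM with BI8622 and 51.5 CPM with DMSO. SREBF1, which encodes SREBP1, the factor of fatty acid synthesis, had 191 CPM with BI8622 and 254 CPM with DMSO in shHUWE1 cells and 223 CPM with BI8622 and 263 CPM with DMSO in control vector cells, and so was lower with BI8622 in the HUWE1 experiment, where SREBF2 was higher. It had 200.2 CPM with BI8622 and 221 CPM with DMSO in +Dox cells, and 211 CPM with BI8622 and 202 CPM with DMSO in -Dox cells. None of the 32 genes was 1.5-fold different with depletion of HUWE1, where 3.99% of all genes were higher and 1.68% lower in DMSO and 2.11% and 2.91% in BI8622, too few to read much from a count of 0 in such a list. With doxycycline the only one was ABCG1 in DMSO, higher at 2.11 CPM in +Dox against 1.26 CPM in -Dox cells.

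In GRCh37, 15 of the 28 genes overlap a gene on the other strand, among them ACAT2 with TCP1, MVK with MMAB and TMEM97 with IFT20, and nothing read here says whether reads were counted by strand. TM7SF2 overlaps VPS51 on its own strand, and CYP51A1, GGPS1 and EBP overlap protein-coding genes without a symbol on theirs, which counting by strand would not separate. For CYP51A1, FDPS, HSD17B7, IDI1 and TMEM97 the annotation also lists pseudogenes named after them, so their counts are less certain. HMGCS1 lies on chromosome 5 at 43287572 to 43313614, MSMO1 on chromosome 4 at 166248819 to 166264316, SREBF2 on chromosome 22 at 42229109 to 42303310, LSS on chromosome 21 at 47608055 to 47648738 and CYP51A1 on chromosome 7 at 91714301 to 91764117.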

How the data were processed

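RNA of Ls174T cells was sequenced in 16 libraries, 2 for each of 8 groups in 2 experiments. Per the submitters' processing notes, reads were aligned to hg19 with Bowtie 0.12.8 after CASAVA and FastQC, and edgeR was used; its version was not found. Each deposited table gives, for pairs of groups, the authors' mean level over the libraries of both groups as log2 counts per 1000000 (CPM), and also their fold changes and p-values, with and without adjustment, which were neither used nor printed. Chromatin data of the series were not used here.

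The mean levels were converted to CPM. The level of each group was solved from 4 pair means in the HUWE1 table (exactly determined) and by least squares from 5 in the MIZ1 table, with a pair mean taken as the arithmetic mean of its groups. For the MIZ1 experiment, 2 routes to the same level were compared: over 25252 genes their median gap was 0.00189 (-Dox DMSO) and 0.00183 (+Dox BI8622) on the log2 scale, and the largest over the 28 genes was 0.0322. With pair means taken as means of log2 values, the median gap was 0.0156. No such check was possible for the HUWE1 table. The solver gave back simulated levels whose pair means were built as arithmetic means. That checks the solving of the equations and cannot test whether the deposited means are arithmetic. The deposited values hold an added 0.234 (HUWE1) and 0.240 CPM (MIZ1) per gene, as implied by the column sums, which makes ratios of low genes smaller.

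Because no values per library were in hand, no test, error or depth can be given, and ratios describe these libraries. Genes of at least 1 mean CPM in a comparison were counted, and a difference was counted from 1.5-fold, a size chosen after the data were seen. Rows that repeat an Ensembl ID (7 in each table) were dropped. Named are all genes of the list with a mean of at least 5 CPM, which all 28 had (lowest 5.12). The genes, the further lists and the markers were chosen with earlier results of these data known. The comparison of shHUWE1 with control vector cells in BI8622 was added later. Alternatives were median centring, no filter, added pseudocounts of 0.1 and 1 CPM, pair means taken on the log2 scale, subtraction of the added CPM, and MIZ1 pairs 1, 2, 4 and 5 left out in turn. Pair 3 (+Dox BI8622 with -Dox DMSO) could not be left out, since the other 4 determine only 3 of the 4 levels. Promoters are from RefSeq (GRCh38.p14), and printed windows were placed by exact match in GRCh37. Python 3.11.15, numpy 2.4.6, pandas 2.3.3 and matplotlib 3.10.9 were used.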

Additional observations from a re-analysis of the deposited data

How the results depend on the processing

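Median centring, no filter, pseudocounts of 0.1 and 1 CPM, and leaving out MIZ1 pairs 1, 2, 4 and 5 in turn (pair 3 could not be left out) moved no median or count of the 28 genes beyond the sizes set for it (0.1 on the log2 scale, 1.5 times for counts); a pseudocount of 1 CPM moved NPC1L1 alone among single genes. With pair means taken as means of log2 values, an alternative chosen after seeing the data and with the larger gap between routes, the median log2 ratio with BI8622 in control vector cells was 0.82 (0.68 as reported), that with doxycycline in DMSO -0.14 (-0.04 as reported), and the difference of the BI8622 responses, shHUWE1 minus control vector, 0.0297 (0.15 as reported). The number of genes at least 1.5-fold lower with HUWE1 depletion in DMSO was then 1, MSMO1, in place of 3, so that LSS and SQLE were no longer counted. With the added CPM subtracted, 1 gene, NPC1L1, was at least 1.5-fold lower with doxycycline in DMSO, in place of 0. Taking pair means on the log2 scale moved 89 of 252 single-gene values beyond the sizes set, of which HMGCS1 moved by over 1.5 times, to 5.30-fold with BI8622 in control vector cells and 5.41-fold with both treatments, in place of 3.26 and 3.31. No direction of a median was reversed. The count of genes higher with BI8622 in control vector cells and lower with HUWE1 depletion in DMSO was 24 under each of these alternatives except median centring, where TMEM97 made it 25. The count below their -Dox level in BI8622 was 24 as reported, 16 with pair means on the log2 scale and 24 or 25 otherwise; in DMSO it was 16 as reported, 25 with pair means on the log2 scale and 15 or 16 otherwise.

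No paired analysis was possible because values per library were not in hand, and for the same reason leaving out a replicate and DESeq2 were not run. Whether a difference exceeds the spread between the 2 libraries of a group is therefore unknown, and small ones, such as most of those with HUWE1 depletion and with doxycycline, are the least certain.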
